A study of Mus musculus with 2 samples.

Results

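The proteasome genes described here were the protein-coding genes of the GENCODE M21 mouse annotation whose symbols begin with Psma, Psmb, Psmc, Psmd, Psme, Psmf or Psmg followed by a number, 50 genes among 55536 gene entries, of which 22028 are protein-coding. By role they comprised 3 immune beta subunits, 2 tissue-specific core subunits, 11 non-ATPase and 6 ATPase subunits of the 19S regulatory particle, 5 activator genes, 1 inhibitor, 3 assembly factors of the 19S base, 4 assembly factors of the core, 7 constitutive beta subunits and 7 constitutive alpha subunits. The remaining gene, Psmc3ip, meets the symbol rule but encodes a factor of meiotic recombination rather than a proteasome subunit. The genes lay on 16 chromosomes, 10 of them on chromosome 11.

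RNA came from whole limbs of healthy B6NCrl mouse embryos of both sexes at age 12.5 days, with no treatment named. Limbs of 88 embryos went into replicate 1 and those of 68 into replicate 2, so differences between embryos are averaged within each library. PolyA transcripts in 10 ng of RNA were primed with oligo-dT, ERCC spike-ins (synthetic RNAs of known amount) were present, and fragmentation was by tagmentation. There is 1 group and no second condition, so the comparisons are between subunit classes and between the 2 libraries.

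The proteasome is the protease of the cytosol and nucleus that degrades proteins tagged with ubiquitin. Its barrel-shaped 20S core is built of outer rings of alpha subunits, which gate the entrance, and inner rings of beta subunits, among which Psmb5, Psmb6 and Psmb7 carry the active sites. The 19S particle caps the barrel: its ATPases (Psmc genes) unfold the substrate and its non-ATPase subunits (Psmd genes) bind ubiquitin and remove it. In immune cells, and under interferon-gamma in many others, Psmb8, Psmb9 and Psmb10 replace the catalytic subunits and change which peptides are made for antigen presentation.

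Levels are given as TPM, the length-corrected share of a gene among all transcripts of a library, spike-ins included. Expected reads are the reads that the quantification assigned to a gene. They summed over genes to 29633457 for replicate 1 and 30118921 for replicate 2. The limb mesenchyme factors Prrx1 (160 and 155 TPM in replicates 1 and 2) and Msx1 (361 and 389 TPM) marked the tissue in both. The 50 genes together held 1.04% of gene TPM in replicate 1 and 1.05% in replicate 2. At least 1 TPM was reached in both libraries by 48 of the 50, against 58.1% of all protein-coding genes. The 34 that reached 100 TPM in both were all 31 constitutive core and 19S genes plus the activators Psme1, Psme2 and Psme3. In whole tissue, fewer cells of a type and less RNA per cell cannot be told apart.

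**Figure D1:**
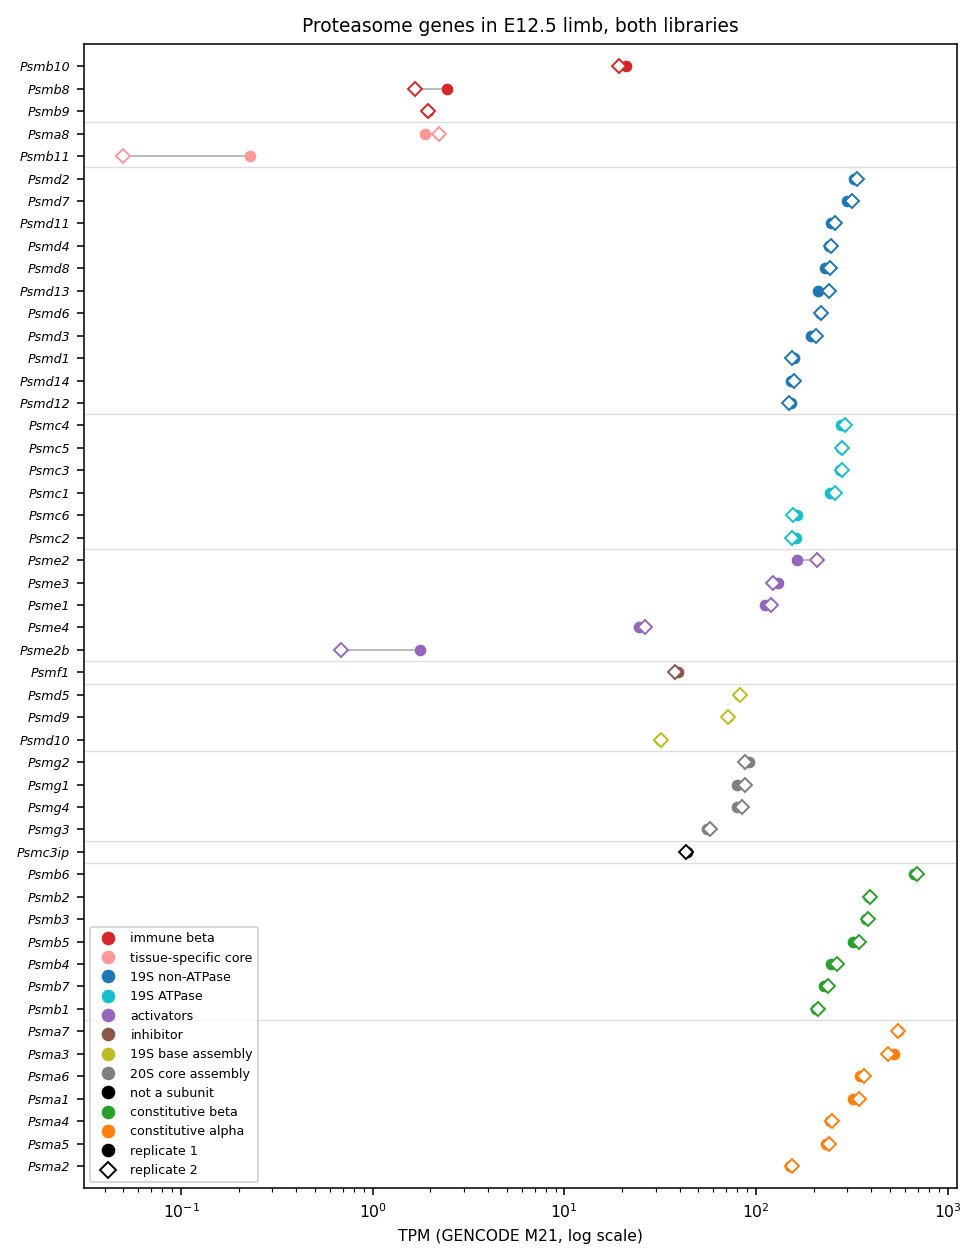
TPM of each of the 50 genes (log axis) in replicate 1 (filled circles) and replicate 2 (open diamonds), 1 row per gene, coloured by class with lines between classes. The 19S and constitutive core genes lie between 148 and 691 TPM, whereas Psmb8, Psmb9, Psma8, Psme2b and Psmb11 lie below 3 TPM.

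The immune subunits were far below the catalytic subunits that they replace. Their median was 2.45 TPM in replicate 1 and 1.95 TPM in replicate 2, against 320 and 344 TPM for Psmb5, Psmb6 and Psmb7, a log2 ratio of -7.25 ± 0.31 (SD, n = 2 libraries), or 152-fold. The 3 genes did not behave as 1 block, since Psmb10 was 10.3-fold above Psmb9 by mean TPM, 4.58-fold with the older GENCODE M4 annotation and 4.85-fold over protein_coding transcripts. The catalytic residue of all 6 proteins is the threonine exposed when the propeptide is cut off, and the coding sequence around it shows how alike the replacements are. The 45-base stretches below are read from GENCODE M21 transcripts on the sense strand, 5′ to 3′, with the codon of the catalytic threonine in capitals, and each immune gene stands above the gene it replaces.
Psmb8: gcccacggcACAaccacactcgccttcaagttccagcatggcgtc
Psmb5: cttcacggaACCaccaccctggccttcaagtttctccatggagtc
Psmb9: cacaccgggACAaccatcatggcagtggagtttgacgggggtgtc
Psmb6: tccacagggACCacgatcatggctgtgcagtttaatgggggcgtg
Psmb10: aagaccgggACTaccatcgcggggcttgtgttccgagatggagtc
Psmb7: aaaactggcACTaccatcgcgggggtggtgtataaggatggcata
Psmb8 and Psmb5 had the same base at 34 of the 45 positions, Psmb9 and Psmb6 at 34, and Psmb10 and Psmb7 at 32. Over 1 coding transcript per gene, the longest identical run was 18 bases for Psmb8 and Psmb5, 11 for Psmb9 and Psmb6, and 15 for Psmb10 and Psmb7. All 3 runs are shorter than the 99 bases by which effective lengths in the files fall below full lengths.

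Psmb8 is the replacement for Psmb5, the chymotrypsin-like subunit. Psmb8 had 2.45 TPM from 42 expected reads in replicate 1 and 1.67 TPM from 33 reads in replicate 2. Counting error alone gives exact 95% Poisson intervals of 1.77 to 3.31 TPM and 1.15 to 2.35 TPM, which overlap. Psmb5 stood at 320 and 344 TPM, so Psmb8 was 164-fold lower. Each gene pair was read against a yardstick: the ratio had to have the same sign in both libraries and exceed, in the smaller of its 2 values, the log2 gap between libraries that 95% of similarly expressed genes stay within. For this the 500 genes closest in TPM to the weaker gene of the pair were taken. For Psmb8 and Psmb5 the log2 ratios were -7.03 and -7.69 in replicates 1 and 2, against a yardstick of 1.06.

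Psmb9, which replaces the caspase-like subunit Psmb6, had 1.95 TPM in both libraries, from 37.4 and 35.3 expected reads. Psmb6 was the highest of the 50 genes, at 670 and 691 TPM in replicates 1 and 2, which left Psmb9 349-fold lower. Psmb8 and Psmb9 are neighbours on chromosome 17, at 34197721 to 34201454 on the plus strand and 34181987 to 34187764 on the minus strand of mm10. Psmb9 overlaps Tap1, the peptide transporter of antigen presentation, by 212 bases on opposite strands, and Tap1 had 4.43 and 3.29 TPM.

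Psmb10 (chromosome 8, 105935735 to 105938444, minus strand, mm10), the counterpart of the trypsin-like subunit Psmb7, stood apart from both. It had 21.1 TPM in replicate 1 and 19.3 TPM in replicate 2, against 226 and 236 TPM for Psmb7, and was 11.5-fold lower. The log2 ratios were -3.42 and -3.62 against a yardstick of 0.34, so this gap also passed. Its size depended on the gene model: Psmb10 was 27.9-fold lower with M4, 20.5-fold lower on counts not divided by length and 74.96-fold lower over protein_coding transcripts. With M21 most of the Psmb10 RNA was assigned outside coding transcripts: 88.8% and 79.4% of the Psmb10 TPM fell on transcripts annotated as retained intron or processed transcript, leaving 2.37 and 3.98 TPM on protein_coding ones. M4 has a single Psmb10 transcript, a protein_coding one, which took 100% in both libraries. The same split with M21 left 1.67 and 0.62 TPM for Psmb8 and 0.67 and 0.64 TPM for Psmb9. For Psmb8 this also depended on the gene model. Its M21 coding values rested on 24.4 and 9.17 expected reads of Psmb8-203, and the other reads went to the retained-intron Psmb8-205. M4 lacks Psmb8-205, and its retained-intron Psmb8-202 drew 0 reads in both libraries. With M4 the Psmb8 level of 2.31 and 1.42 TPM thus fell on protein_coding transcripts. Counted over protein_coding transcripts of M21 alone, the class log2 ratio of immune over constitutive catalytic genes was -8.33 instead of -7.25. It was -8.35 for Psmb8 over Psmb5 and -9.89 for Psmb9 over Psmb6.

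**Figure D2:**
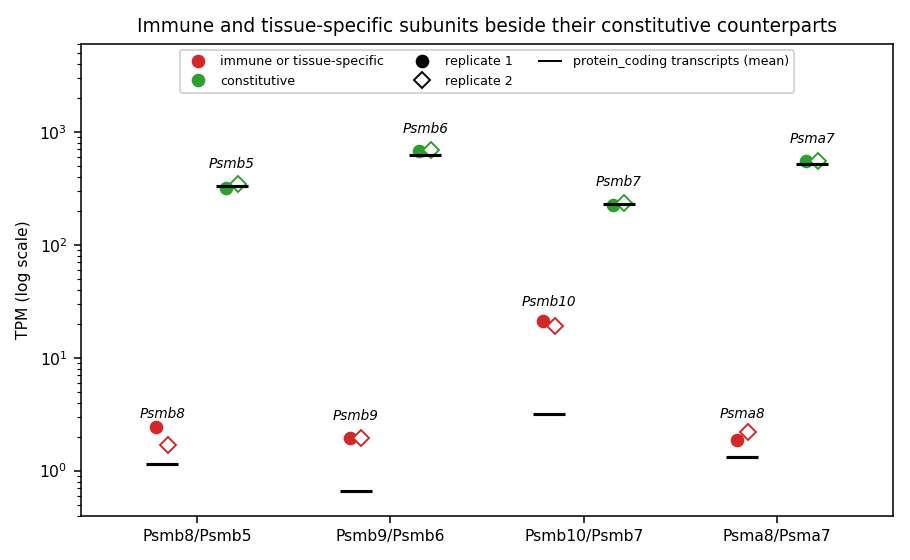
TPM (log axis) of Psmb8, Psmb9, Psmb10 and Psma8 (red) left of Psmb5, Psmb6, Psmb7 and Psma7 (green), with replicate 1 as filled circles, replicate 2 as open diamonds and a black dash for the 2-library mean over protein_coding transcripts. Every red gene lies below its green counterpart in both libraries, and the dash of Psmb10 lies well under its points.

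Genes of antigen presentation were mostly measurable beside the immune subunits, since 9 of 10 reached 1 TPM in both libraries. Their median, by mean TPM of the 2 libraries, was 5.255 TPM. B2m, the light chain of class I molecules and the highest of the 10, had 115 and 107 TPM in replicates 1 and 2. Nlrc5, a transactivator of class I genes, had 0.01 and 0.07 TPM from 1 and 4 reads. The 7 leukocyte markers (Ptprc, Pf4, C1qb, Csf1r, Tyrobp, Fcer1g and Cd68) were all at 1 TPM or more in both libraries, with a summed level of 106 TPM in replicate 1 and 92.7 TPM in replicate 2, and 6 of the 7 were higher in replicate 1. The 5 endothelial markers summed to 126 and 118 TPM. The part of these cells in the immune subunit levels was not tested.

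Of the tissue-specific core subunits, Psma8 was low but detected and Psmb11 was near the limit of detection. Psma8, an alpha subunit of germ cells, had 1.88 TPM from 41 reads in replicate 1 and 2.22 TPM from 52 reads in replicate 2. Its constitutive counterpart Psma7 had 550 and 553 TPM, so Psma8 was 270-fold lower. None of the 4 germ cell markers (Ddx4, Dazl, Sycp3, Dppa3) reached 1 TPM, and together they summed to 0.6 and 0.9 TPM. Psmb11, the catalytic subunit of thymic cortical epithelium, had 0.23 TPM from 3 reads and 0.05 TPM from 4 reads, with exact Poisson intervals of 0.047 to 0.67 TPM and 0.014 to 0.13 TPM. Of 3 thymic epithelium markers, Foxn1 had 0.03 and 0.02 TPM, Prss16 0.95 and 0.93 TPM, and Ccl25 17.98 and 18.37 TPM. Psmb11 lies next to Psmb5 on chromosome 14 (54621433 to 54629556 plus strand and 54614119 to 54618022 minus strand, mm10), although Psmb5 was at 320 and 344 TPM. With so few reads no fold change is given for Psmb11.

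The 19S particle was lower per gene than the core when levels were corrected for length. The median of the 17 regulatory genes was 228 TPM in replicate 1 and 244 TPM in replicate 2, against 321 and 344 TPM for the 14 constitutive core genes. The log2 ratio was -0.49 ± 0.0047 (SD, n = 2), so the core median was 1.41-fold higher. No regulatory gene lay above all core genes. How many lay below all of them depended on the gene model of Psma2, the lowest core gene: with M21 it was 1 of 17 by mean level (Psmd12; 0 in replicate 1 and 1 in replicate 2), and with M4, where Psma5 was lowest, 9 of 17. On expected counts not divided by length, the ratio turned round to 0.12, since the regulatory genes are longer (median 1439 bases, against 1079 bases for the core genes). Neither class came near background, since all 31 genes stood at or above the 92.1 percentile of the 12802 protein-coding genes at 1 TPM in both libraries, whose median was 22.4 TPM.

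Among the 11 non-ATPase genes, levels ran over a narrow range of 2.20-fold. Psmd2, the large scaffold that docks ubiquitin carriers, was highest, at 323 TPM in replicate 1 and 338 TPM in replicate 2. Psmd12, a lid subunit, had the lowest mean, at 153 and 148 TPM. Psmd4, an intrinsic ubiquitin receptor, lay between them, at 239 and 247 TPM. Psmd14, the metalloprotease that takes ubiquitin off the substrate, had 152 and 157 TPM, and was the lowest in replicate 1. Its structural partner in the lid, Psmd7, had 299 and 315 TPM. Psmd14 was therefore lower than Psmd7 by 0.97 and 1.00 on the log2 scale in replicates 1 and 2, beyond the yardstick of 0.21. Of the other lid genes, Psmd11 had 245 and 259 TPM, Psmd8 228 and 244 TPM, Psmd13 211 and 241 TPM, Psmd6 215 and 220 TPM, and Psmd3 193 and 206 TPM. Psmd1, the second large base scaffold, had 158 and 154 TPM.

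The 6 ATPase genes fell into a higher and a lower set. In replicates 1 and 2, Psmc4 had 279 and 290 TPM, Psmc5 277 and 281 TPM, Psmc3 275 and 279 TPM, and Psmc1 244 and 257 TPM. Psmc6 had 164 and 157 TPM and Psmc2 162 and 155 TPM. The lower pair stood below the other 4 in both libraries. The non-ATPase median was 215 and 241 TPM in replicates 1 and 2, against 259 and 268 TPM for the ATPases, a log2 ratio of -0.21 ± 0.084 (SD, n = 2). This gap depended on the summary, since the difference of mean log2 values was -0.07.

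Other 19S-associated genes, which the symbol rule leaves out, were also present. All 7 that were found reached 1 TPM in both libraries. Sem1, the smallest lid subunit, had 243 and 264 TPM and Adrm1, another ubiquitin receptor, 166 and 165 TPM. The deubiquitinases Usp14 and Uchl5 had 146 and 154 TPM, and 65.9 and 73.3 TPM. Of 12 ubiquitin genes and shuttle factors, all reached 1 TPM in both, led by Ubb at 2803 and 2909 TPM. The transcription factor Nfe2l1, which raises proteasome genes when the proteasome is inhibited, had 54.8 and 52.9 TPM.

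The activators cap the core in place of the 19S particle and spread over a far wider range. Psme1 and Psme2 form 1 mixed ring and are induced by interferon-gamma. Psme2 had 164 TPM in replicate 1 and 207 TPM in replicate 2, and Psme1 had 111 and 120 TPM. The log2 ratio of Psme2 over Psme1 was 0.56 and 0.79, beyond the yardstick of 0.21, but fell to 0.04 on counts not divided by length. They are neighbours on chromosome 14 (Psme1 at 55578123 to 55581529 on the plus strand, Psme2 at 55587441 to 55591113 on the minus strand, mm10). Psme3, which forms the nuclear activator ring, had 131 and 123 TPM. Its log2 ratio to Psme1, 0.23 and 0.03, did not pass the yardstick of 0.21. Psme4, the large single-chain activator, had 24.4 and 26.4 TPM and was 4.99-fold below Psme3, a log2 ratio of -2.32, or -1.57 on counts not divided by length. The inhibitor gene Psmf1 had 39.2 and 37.7 TPM.

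Assembly factors were lower than the subunits they assemble. The 7 genes had a median of 79.3 TPM in replicate 1 and 82.7 TPM in replicate 2. Of the core chaperones, Psmg2 had 91.4 and 87.5 TPM, Psmg1 79.3 and 87.2 TPM, Psmg4 79.8 and 84.9 TPM, and Psmg3 55.8 and 57.3 TPM. For the base, Psmd5 had 81.1 and 82.7 TPM, Psmd9 71.1 and 71.2 TPM, and Psmd10 31.6 and 32.0 TPM. Psmd10 was the lowest of the 7 in both libraries. Pomp, the maturation factor of the core and no member by symbol, was higher than all of these, at 382 and 408 TPM. Akirin2, which helps import proteasomes into the nucleus, had 70.5 and 80.4 TPM. Psmc3ip had 43.5 and 43.3 TPM.

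In the constitutive core, the beta and alpha medians differed by less than the other class ratios. The beta median was 320 TPM in replicate 1 and 344 TPM in replicate 2, against 322 and 343 TPM for alpha, a log2 ratio of -0.0016 ± 0.0097 (SD, n = 2). Its sign changed between the 2 libraries. Within the beta ring, Psmb6 was highest and the non-catalytic Psmb1 lowest, at 204 and 212 TPM in replicates 1 and 2. The other non-catalytic beta genes were Psmb2, at 390 and 392 TPM, Psmb3, at 375 and 384 TPM, and Psmb4, at 247 and 263 TPM. Within the alpha ring, Psma7 was highest and Psma2 lowest, at 151 and 154 TPM. Psma3 followed Psma7, at 525 TPM in replicate 1 and 488 TPM in replicate 2. Psma6 had 351 and 365 TPM, Psma1 322 and 343 TPM, Psma4 243 and 249 TPM, and Psma5 232 and 241 TPM. Mean levels thus spanned 2.20-fold in the 17 regulatory genes and 4.46-fold in the 14 core genes.

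The lowest core values depended on the gene model. The same libraries were also quantified with M4, and 5 of the 50 genes differed by more than 1.5-fold in mean TPM. Psma2 averaged 152 TPM with M21 and 351 TPM with M4, while its expected counts differed by a factor of 1.02. Its transcript length, weighted by abundance, was 1980 bases in M21 and 944 bases in M4. Psmb1 averaged 208 TPM with M21 and 374 TPM with M4, on 1758 and 1036 bases. In the other direction, Psmd9 averaged 71.2 TPM with M21 and 34.3 TPM with M4, and Psmb10 20.2 and 9.36 TPM. Psmb11, the fifth, rests on 7 reads in all. With M4 the core genes spanned 2.88-fold and the log2 ratio of regulatory over core genes was -0.62.

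**Figure D3:**
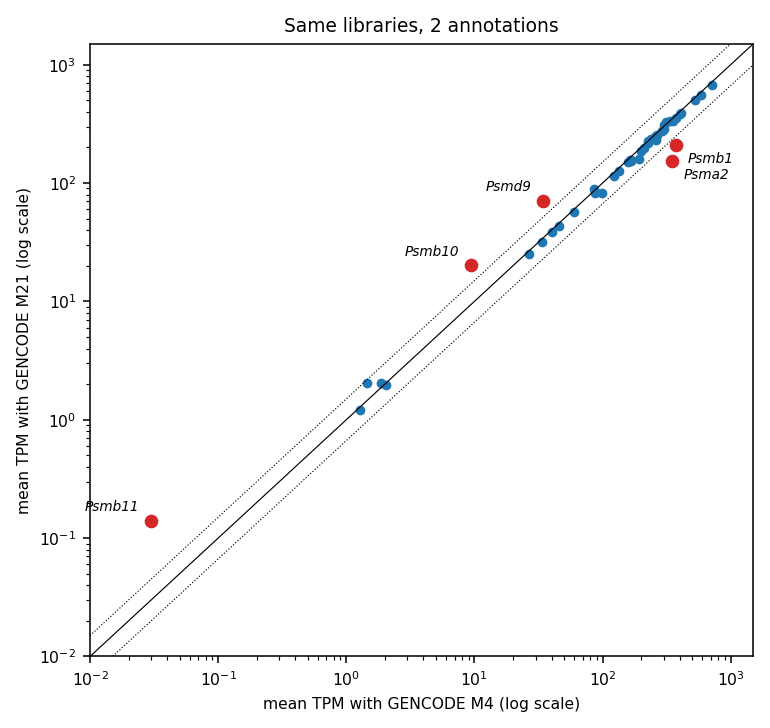
Mean TPM of the 2 libraries with GENCODE M21 (vertical) against GENCODE M4 (horizontal), both log axes, 1 point per gene; the solid line marks equal values and dotted lines 1.5-fold. Psma2 and Psmb1 lie below the dotted band, Psmd9, Psmb10 and Psmb11 above it (red), and the other 45 genes within it (blue).

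Several genes owed much of their TPM to transcripts that the annotation does not call protein_coding. Of the 50 genes, 17 had 10% or more of their TPM there in both libraries: 6 of the 31 constitutive core and 19S genes and 11 of the other 19. The share over all protein-coding genes was not counted, so whether proteasome genes differ from others in this was not tested. Counted in expected reads, the mean share was smaller for most of them, such as 3.2% against 28.4% of TPM for Psme4. For Psmb4 it was 38.9% against 56.4%. In Psmb8 and Psmf1 the share of reads was the larger, at 57.0% against 47.4% and 21.2% against 14.5%. In 4 (Psmb10, Psmb9, Psmb4 and Psmc3ip) the leading transcript by TPM was not a coding one in either library, and in Psma3 and Psmb8 in 1 library. Psmb4 had 50.4% and 48.9% of its TPM on Psmb4-202, a retained-intron transcript, in replicates 1 and 2, which left 104 and 118 TPM on coding transcripts. By expected reads the coding Psmb4-201 led, with 2230 and 2557, against 1391 and 1455 for Psmb4-202. Psma3 likewise kept 212 and 207 TPM of its 525 and 488 TPM on coding transcripts. The coding level is a part of the gene level, so for these genes it is lower by definition. Counted over protein_coding transcripts, the log2 ratio of beta over alpha became 0.48 and that of regulatory over core genes -0.30. Psmc3ip had 77.9% and 72.4% of its TPM outside coding transcripts. TPM per transcript depends on how reads shared by transcripts are divided.

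**Figure D4:**
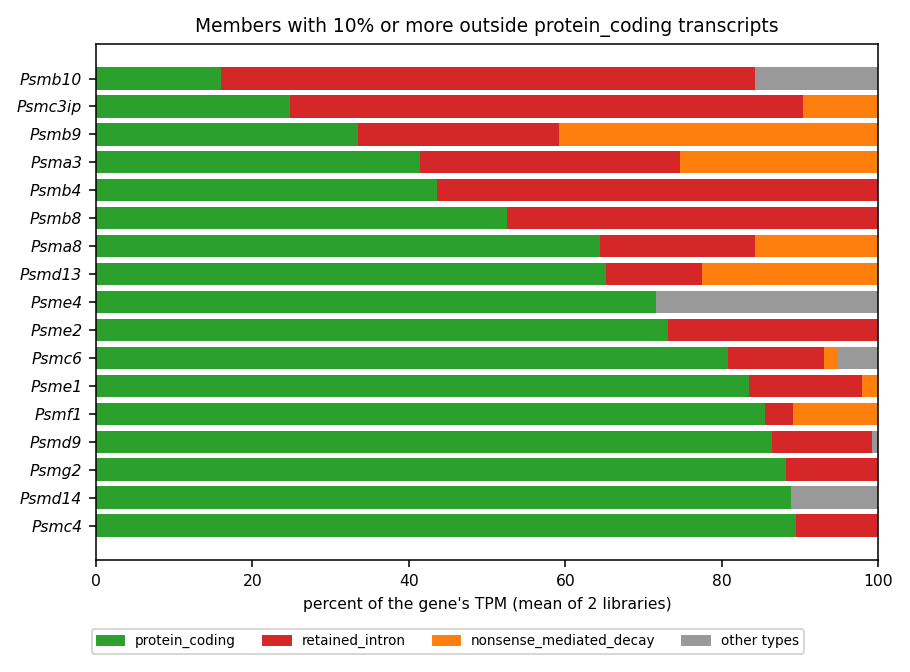
Percent of each gene's TPM (mean of 2 libraries) on protein_coding, retained_intron, nonsense_mediated_decay and other transcripts, for the 17 genes with 10% or more outside protein_coding in both libraries. Psmb10, Psmc3ip, Psmb9, Psma3 and Psmb4 have over 50% of their TPM outside protein_coding.

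Most genes nevertheless rested on 1 transcript. The annotation lists 278 transcripts for the 50 genes, and in 30 genes the leading one held 75% or more of the TPM in both libraries. In 12 a second transcript held at least 25% in both. Neither count was made for other genes, so these are not shown to be traits particular to proteasome genes. Psmd4 divided into Psmd4-202, with 50.9% and 50.8%, and Psmd4-201, with 38.9% and 39.2%, both protein_coding. Psmd5 divided between a 555-base transcript, Psmd5-202, with 47.6% and 46.2%, and the 4397-base Psmd5-201, with 45.1% and 44.5%. The 2 forms of Psmd5 drew unequal reads: 347 and 347 expected reads for the short one, and 3101 and 3153 for the long one. With M21 the division was close between the 2 libraries in both genes. For Psmd5 it depended on the gene model. With M4, where Psmd5-201 is 2020 bases long, Psmd5-202 drew 0 reads and Psmd5-201 held 99.1% in both libraries.

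The 2 libraries were also compared gene by gene. Rounded expected counts were compared by an exact binomial test, two-sided, with library sizes scaled by edgeR's TMM factors and Benjamini-Hochberg adjustment over the 15926 genes at a mean of 1 TPM. A gene was called where the adjusted p was below 0.05 and TPM differed 2-fold or more. Of the 49 tested proteasome genes 1 was called, while 1.07% of all genes were (170, of which 73 were higher in replicate 1). This compares the reads of 2 libraries, not conditions. The gene was Psme2b, with 1.76 TPM from 25.7 expected reads in replicate 1 and 0.68 TPM from 9.94 reads in replicate 2, a log2 ratio of 1.37 (adjusted p = 0.0406 from this exact test). It met the minimum of a 1 TPM mean only through replicate 1, the library in which it was higher. Psme2b has a single transcript whose 837 bases equal its span in the genome, and it shares an identical run of 341 bases with Psme2-208, so reads of Psme2 and Psme2b can be exchanged. Without the fold threshold 12 of 49 genes were called, against 19.2% of all genes. At 1.5-fold (2.71% of all genes) and with M4 (0.959%) Psme2b was again the 1 gene called. With no minimum level 0 of 50 were called (1.29% of all genes). At a mean of 5 TPM, where Psme2b is below the minimum, 0 of 45 were called (0.335%). In these settings 20 and 19 of the proteasome genes had an unadjusted p under 0.05 in the exact test. The share of all genes at that unadjusted p was not counted, so no excess can be read from these numbers.

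The largest TPM difference among the abundant genes was in Psme2, at 164 TPM in replicate 1 and 207 TPM in replicate 2, a log2 ratio of -0.33. Its expected reads differed less, at 2177 and 2391. Its transcript length, weighted by abundance, was 771 bases in replicate 1 and 678 bases in replicate 2. Its coding TPM hardly differed, at 133 and 135 TPM, while Psme2-203, a retained-intron transcript of 185 bases, held 14.9% of the TPM in replicate 1 and 24.1% in replicate 2. With M4, Psme2-203 rested on 48.3 and 91.8 expected reads. Psmd13 showed the same layout: 211 and 241 TPM for the gene, and 146 and 147 TPM for its coding transcripts. In all, 13 of the 50 genes were higher in replicate 1 and 36 in replicate 2, with Psmb9 equal. Their median log2 ratio was -0.038, against -0.034 for all 1748 genes at 100 TPM or more and -0.012 for all 15926 genes at a mean of 1 TPM. The ERCC spike-ins took 7.34% of TPM in replicate 1 and 5.13% in replicate 2. With TPM rescaled to genes only, 24 were higher in replicate 1 and 26 in replicate 2.

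**Figure D5:**
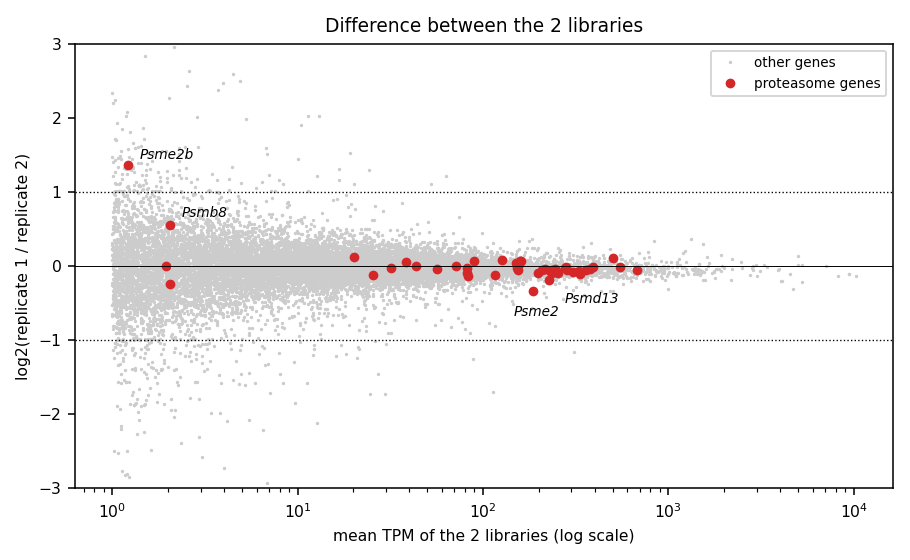
Log2 ratio of replicate 1 over replicate 2 against the mean TPM of the 2 libraries (log axis) for the 49 proteasome genes at 1 TPM or more (red) and the other genes tested (grey); 160 genes listed at 0 in 1 library and 16 beyond a log2 ratio of 3 are not drawn, and dotted lines mark 2-fold. Psme2b is the red point beyond 2-fold, and Psme2 and Psmd13 are the lowest of the red points above 100 TPM.

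Neighbouring and overlapping genes may limit some of these values. In the annotation, with introns included, 24 of the 50 genes overlap another gene. Of these, 10 do so on the same strand and 19 on the opposite one. How much of each overlap lies in exons was not counted. No source used here says whether counting used strand, so reads from exons shared on opposite strands may not have been told apart. Psmb7 overlaps Nek6 by 6571 bases on opposite strands, and Nek6 had 124 and 112 TPM. Psmd13 holds the processed pseudogene Gm15542 on its own strand, with 18.5 and 19.8 TPM. Psma2 overlaps AW209491 on the same strand by 8943 bases, and AW209491 had 26.0 and 27.3 TPM. Psmc3 overlaps Slc39a13 by 4579 bases on opposite strands, with 38.3 and 36.1 TPM for Slc39a13. The part of these overlaps in the levels was not tested.

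Promoter windows in the RefSeq table (GRCm38.p6, 250 bases before to 50 after the start) were found for 42 of the 50 genes. The antioxidant response element, searched as TGACNNNGC on both strands because Nfe2l1 binds such elements, matched 4 of 25 constitutive core and 19S genes (Psmb5, Psmb6, Psmc6 and Psmd12), or 16%, against 13.99% of 27025 genes. CCAAT matched 10 of the 25, or 40%, against 41.1% of all genes. The interferon-type motif TTCNNNGAA matched 2 of the 17 other genes (Psmb8 and Psmg1), or 11.8%, and 1 of the 25 (Psmd2), or 4%, against 9.55% of all genes. The interferon-stimulated response element matched 3 of the 17 (Psmd9, Psme1 and Psmg4), or 17.6%, and 2 of the 25 (Psmb3 and Psmd4), or 8%, against 3.99%. A match is a string of letters, not a bound site, and these counts are small.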

How the data were processed

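Gene and transcript tables in the layout of RSEM were deposited by the authors for each library, giving expected counts, TPM and, for transcripts, the percent of the gene's TPM held by each (IsoPct), against mm10. The assembly is per the labels, and the tables carry GENCODE M21 (main) and M4 identifiers. The aligner, the program versions and the strand setting were not given in the sources used. The 2 libraries are separate embryo pools with no group to set against them. The p-values set the read difference between the 2 libraries against counting error alone and do not measure the spread among libraries. Counting intervals and floors also cover counting error only, since reads are not unique molecules. Expected counts were rounded, scaled with edgeR 4.0.16 (TMM; alternatively DESeq2 1.42.0 size factors) and tested by an exact binomial test in scipy 1.17.1, which was tested on simulated data. Class ratios are log2 ratios of median TPM per library, with no test. Members, gene lists, pairs and thresholds were chosen with earlier results of these data known. Every member could be named, in order of role, and other genes only from the lists or where a result turns on them. Alternatives were the M4 tables, counts not divided by length, log2(TPM + 1), coding transcripts only (chosen after seeing the data), other thresholds, and each library left out.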

Additional observations from a re-analysis of the deposited data

How the results depend on the processing

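The log2 ratio of regulatory over core genes (-0.49) was -0.62 with M4, 0.12 on counts not divided by length, -0.53 as a difference of mean log2(TPM + 1) and -0.30 over protein_coding transcripts, an alternative chosen after seeing the data. Non-ATPase over ATPase (-0.21) was -0.065 by mean log2(TPM + 1). Beta over alpha (-0.0016) was 0.092 with M4, -0.35 on counts, 0.069 by mean log2(TPM + 1) and 0.48 over protein_coding transcripts, and between -0.0085 and 0.0053 with each library left out, so no direction is given for it. Immune over constitutive (-7.25) was -6.03 by mean log2(TPM + 1), -6.71 with 1 TPM added to the medians and -8.33 over protein_coding transcripts, always lower. Psme2 over Psme1 (0.67) was 0.040 on counts and no longer passed. Psme3 over Psme1 (0.13) passed on counts (1.51), over protein_coding transcripts (0.36) and without replicate 2 (0.23, against 0.033 without replicate 1). Members called between the libraries (1) numbered 0 with no minimum level, 0 at a mean of 5 TPM and 12 with no fold threshold. In the exact test 20 had an unadjusted p under 0.05, and the share of all genes at that p was not counted. Second transcripts of 25% (12 genes) became 22 at 10%; genes with 10% outside protein_coding (17) became 9 at 25% and 11 with M4. The causes of these shifts were not tested beyond the change of length, transcripts or threshold itself. The other 80 alternative values kept their direction and their side of the threshold, or moved by less than 1 SD or, for counts, 1.5 times. For some of these with 1 library left out, the outcome was fixed in advance. In class ratios, each of 2 values always lies within their SD of the mean. For pairs that passed, each library alone had to pass as well. No paired analysis was possible because there is a single group. Depth limits Psmb8, Psmb9, Psma8, Psme2b and Psmb11, with 3 to 52 expected reads each.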
